A study of Mus musculus with 2 samples.

Results

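Dense clusters of open chromatin away from gene starts were described in mouse gastrocnemius, the large calf muscle, which is mixed but mainly of fast fibres. The data are DNase-seq, a method that maps the places where DNase I can reach and cut the DNA of nuclei. Both libraries came from 1 group, female B6CASTF1/J mice aged 2 months, first-generation hybrids of C57BL/6J and CAST/EiJ mice. The 2 libraries have their own biosamples and replicate numbers in the labels but a common donor identifier. The spread between them may therefore be technical in part. There was no treatment or mutant, and no comparison between conditions was possible. The tissue was processed whole, so a peak cannot be assigned to muscle fibres or to another cell type of the muscle.

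A peak was called shared where the longer peak lists of both libraries overlapped by at least 1 bp. Replicate 1 listed 66984 peaks and replicate 2 listed 258342, and together they gave 49160 shared peaks. Of these, 27317 were distal, with a midpoint more than 1 kb from any annotated transcript start. Neighbouring distal shared peaks no more than 5 kb apart were chained, and every peak in a chain of at least 5 was kept as a member. This gave 2602 member peaks in 331 chains, which was 9.53% of distal and 5.29% of all shared peaks. The other 24715 distal shared peaks lay in shorter chains or alone. Members were selected on measured values, the presence and spacing of peaks, and chains were ranked by the authors' signal. These values are thus given as a description, with no test.

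A DNase I hypersensitive site is a short stretch where transcription factors have displaced nucleosomes. Away from gene starts such sites are often enhancers, and genes central to a tissue's identity can have many of them close together. In skeletal muscle the myogenic factors MYOD and MYOG bind the E-box CAGCTG, which reads the same on both strands, and MEF2, nuclear factor I and AP-1 proteins bind beside them. DNase I cutting can also be raised over broad stretches of open or transcribed chromatin, in which a peak caller may list many neighbouring peaks.

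Sequences of 9 member peaks are shown first. The first 8 belong to chains that the results turn on, and the last shows several E-boxes in 1 window. Each is the 150 bp window around the peak's midpoint on the plus strand of GRCm38 (mm10), in the RefSeq copy of that assembly. This is the C57BL/6J sequence, while the samples also carry CAST/EiJ alleles. The first 8 are the best-ranked members of their chains, and the last, from a chain of 6 peaks, is among the members with most CAGCTG sites. Capitals mark CAGCTG.
Nfic, chr10:81433021-81433170: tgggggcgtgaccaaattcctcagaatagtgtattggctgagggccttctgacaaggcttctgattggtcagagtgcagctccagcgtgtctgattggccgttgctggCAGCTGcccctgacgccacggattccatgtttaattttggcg
Thra and Nr1d1, chr11:98783441-98783590: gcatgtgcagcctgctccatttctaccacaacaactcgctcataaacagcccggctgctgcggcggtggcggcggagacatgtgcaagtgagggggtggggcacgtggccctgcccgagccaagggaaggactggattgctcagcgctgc
Per1 and Hes7, chr11:69097076-69097225: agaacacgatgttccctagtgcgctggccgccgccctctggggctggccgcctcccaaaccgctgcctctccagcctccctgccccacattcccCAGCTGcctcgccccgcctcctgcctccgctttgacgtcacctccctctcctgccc
Mef2d, chr3:88138371-88138520: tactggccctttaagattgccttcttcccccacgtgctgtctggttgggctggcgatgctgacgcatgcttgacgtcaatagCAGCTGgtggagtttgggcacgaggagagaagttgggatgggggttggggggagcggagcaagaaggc
Atp2a1, chr7:126465716-126465865: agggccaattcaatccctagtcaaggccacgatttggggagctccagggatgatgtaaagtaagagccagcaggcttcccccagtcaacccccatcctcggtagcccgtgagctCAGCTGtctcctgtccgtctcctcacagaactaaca
Mid1, chrX:169998171-169998320: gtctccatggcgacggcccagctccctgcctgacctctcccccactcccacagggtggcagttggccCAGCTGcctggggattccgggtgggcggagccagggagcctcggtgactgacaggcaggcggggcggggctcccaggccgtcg
Tns1, chr1:73915336-73915485: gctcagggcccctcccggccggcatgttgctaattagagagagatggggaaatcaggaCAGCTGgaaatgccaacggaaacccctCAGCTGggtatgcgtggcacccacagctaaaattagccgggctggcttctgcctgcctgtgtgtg
near Sik1, chr17:31874119-31874268: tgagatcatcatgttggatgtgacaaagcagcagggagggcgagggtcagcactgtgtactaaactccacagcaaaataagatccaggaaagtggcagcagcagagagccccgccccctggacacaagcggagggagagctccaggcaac
Fgfr2 and Htra1, chr7:130959956-130960105: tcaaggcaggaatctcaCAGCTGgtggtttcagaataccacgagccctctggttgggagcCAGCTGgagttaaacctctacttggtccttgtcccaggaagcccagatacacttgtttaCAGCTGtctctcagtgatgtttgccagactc
The Nfic, Per1, Mef2d, Atp2a1 and Mid1 windows hold 1 CAGCTG site each, the Tns1 window holds 2, and the last window holds 3. The windows of the Thra and Nr1d1 chain and of the chain near Sik1 hold none. The clock E-box CACGTG, the core site of CLOCK and BMAL1, stands in lower case in the windows of Thra and Nr1d1 and of Mef2d. The Thra and Nr1d1 peak had the strongest signal of the 9, 9.36 in replicate 1 and 25.1 in replicate 2. The Tns1 and Sik1 peaks, although the best of their chains, had only 0.907 and 0.972 in replicate 1, and 1.29 and 1.40 in replicate 2. The Fgfr2 and Htra1 peak is intronic, had signals of 1.64 and 4.17 in replicates 1 and 2, and held 2 and 3 of the authors' footprints. With 10 kb on each side, Fgfr2 spans 2981 kb in the annotation used, so its name places this peak only loosely.

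Most dense clusters were small and a few were very long. Of 4393 chains with at least 2 distal shared peaks, 331 reached 5, which is 7.53%. The median cluster held 6 peaks, and 200 of the 331 held 5 or 6. The 70 chains of at least 10 peaks held 1050 members, 40.4% of the total. Cluster spans ran from 2.60 to 40.6 kb with a median of 9.27 kb (quartiles 6.48 and 12.8). All spans together covered 3.46 Mb, or 0.127% of the genome. Within a cluster the members covered a median of 24.4% of the span, at a median density of 7.53 peaks per 10 kb.

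The 2271 gaps between neighbouring members were mostly far below the 5 kb limit. Their median was 520 bp (quartiles 220 and 1660), 64.6% were under 1 kb, and 5.28% were over 4 kb. The minimum of 5 peaks did not fall at a break in strength. In the 297 chains of 4, just outside the rule, peaks had median signals of 1.01 in replicate 1 and 1.73 in replicate 2. In the 127 chains of 5, just inside it, these medians were 0.966 and 1.502. Clusters also lay near one another, with 36 pairs of neighbouring chains no more than 50 kb apart. The chain near Timp2 was 6.49 kb from that at Lgals3bp, and the 2 largest chains near Sik1 were 5.54 kb apart. Rara, Nfix and Tns1 each had 3 chains.

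**Figure D1:**
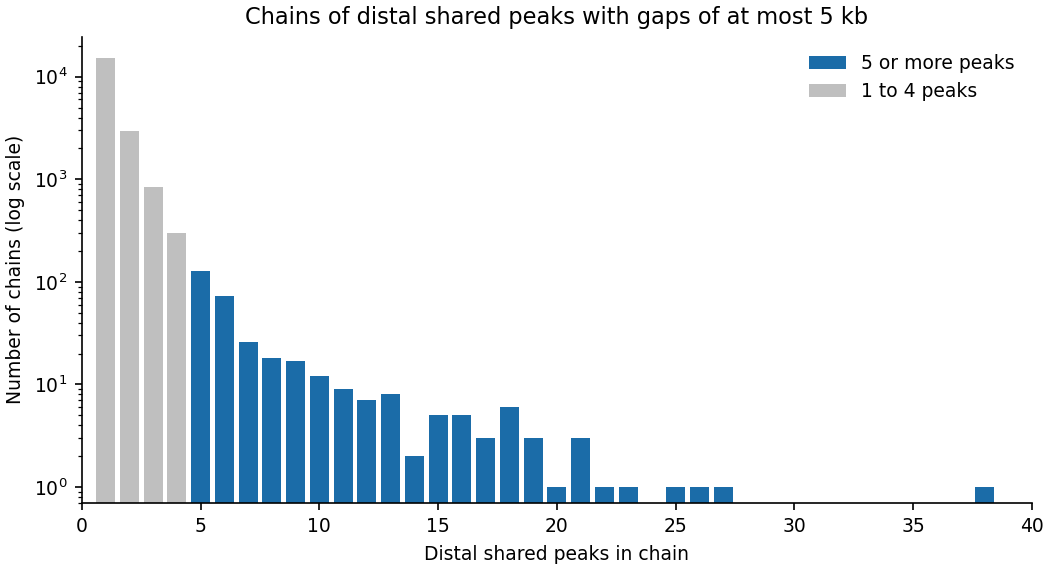
Number of chains (log axis) by the number of distal shared peaks in the chain. Blue bars are the dense clusters of at least 5 peaks and grey bars the shorter chains. There were 127 chains of 5, 297 of 4, and a single chain of 38.

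The longest cluster lay on chromosome X from 169981761 to 170022340 (mm10), over Mid1, a ubiquitin ligase of microtubules, and the predicted gene Gm21887. It held 38 members over 40.6 kb and was first by number of peaks and by summed signal rank. Its signals ran from 0.287 to 5.93 in replicate 1 (median 0.659) and from 0.174 to 9.87 in replicate 2 (median 0.779). Its sequence is repeated in the genome. Counting exact copies of each 31-base word in GRCm38, 36 of the 38 member windows had a median of at least 2 copies, and the chain's median was 4 (lowest 1, highest 45). In 17 of the 38 a word recurred in another member of the same chain. In C57BL/6 mice Mid1 crosses the boundary of the pseudoautosomal region, which is shared with Y. How the authors placed reads with several matches is not given in the sources used here, and its part in this cluster was not tested.

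In all, 8 clusters were made mostly of such multi-copy windows, and they held 100 members (3.84%). They include both clusters on Y, with 15 and 6 peaks, although the labels give female mice. They were 21 of the 28 distal shared peaks on Y. Among all members 118 windows (4.53%) were multi-copy, against 462 (1.87%) of the other distal shared peaks. The exonic, intronic and CAGCTG shares are also given without these 8 clusters.

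Behind Mid1, the order of the clusters depended on whether peaks were counted or weighted by strength. The chain near Sik1, which encodes a salt-inducible kinase, was second by number on chromosome 17 (31860961 to 31882660), with 27 intergenic peaks. Its mean rank was 27.3 on a scale where 100 is the strongest peak of each library's list, and it came 37th by summed rank. Its median signals were 0.269 in replicate 1 and 0.275 in replicate 2, and 10 of its 27 peaks ranked under 20. The chain near Timp2, an inhibitor of matrix metalloproteinases, held 26 intergenic peaks on chromosome 11 (118360601 to 118380914) with a mean rank of 38.9. The chain at Tns1, which encodes the focal adhesion protein tensin, held 25 peaks on chromosome 1 (73900761 to 73922700). Those from 73900761 to 73910340 were intergenic, and 8 of the 25 lay in exons. The chain's mean rank was 45.5 and no member reached 80.

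Chains at Lgals3bp and Cant1 and at Vwa8 and Zfp957 had 21 peaks each and were weaker still. Their mean ranks were 19.6 and 17.6, with 10 and 13 members under 20. The chain at Mafk, a small MAF transcription factor, and Tmem184a had 20 peaks and a mean rank of 44.9. The chain at Cdc42bpa and Coq8a, a kinase-like protein needed for coenzyme Q, had 21 peaks and a mean rank of 49.2. A chain of 19 peaks at the very start of the assembled chromosome 4, whose nearest coding start is Vmn1r2 at 106409 bp, had a mean rank of 24.7. In replicate 2 the median member rank was 65.3 at Mafk and 58.6 at Cdc42bpa, so most of their peaks stood in the upper part of that list. Both medians were low for shared peaks, whose replicate 2 median rank was 81.9 over all members and 86.8 over the other distal ones. The chain at Mpnd and Sh3gl1, an endophilin gene, had 18 peaks and a mean rank of 52.9.

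Other clusters had higher mean ranks. The chain in Nfic, a nuclear factor I gene, lay on chromosome 10 (81411581 to 81436220) and held 22 peaks, 21 of them intronic. Its signals ran from 0.480 to 5.75 in replicate 1 (median 1.16) and from 0.420 to 12.7 in replicate 2 (median 1.23), and 11 of its 22 members ranked at least 80. It was second by summed rank and had the most CAGCTG peaks of any chain together with 1 other, 7 of 22.

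The chain at Thra, which encodes thyroid hormone receptor alpha, and Nr1d1, which encodes the clock repressor REV-ERB alpha, lay on chromosome 11 (98765381 to 98789480). All 15 of its members ranked at least 82.1, with a mean of 91.2, and it took position 4 by summed rank. Its signals ran from 1.34 to 9.45 in replicate 1 (median 2.13) and from 1.21 to 25.1 in replicate 2 (median 4.24). The members lay in 2 groups. The strongest inside a gene was an intronic peak (98773761 to 98774220) with signals of 9.45 and 20.9. The strongest outside genes was the peak whose window is printed above (98783381 to 98783640), with 9.36 and 25.1. From there 6 more peaks followed up to the end of the chain, with signals of 1.34 to 5.06 in replicate 1 and 1.91 to 10.4 in replicate 2. Of the 15 members 5 held CAGCTG.

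The Mef2d chain, at the gene of a MEF2 transcription factor, lay on chromosome 3 (88133221 to 88152360) with 13 peaks and a mean rank of 82.5. Its strongest member (88138341 to 88138540) was intergenic, with signals of 4.16 and 10.4, and its weakest (88152181 to 88152360) was intronic, with 0.626 and 1.22. A second chain of 5 intronic peaks lay 12.3 kb further on and was weaker, with signals of 0.205 to 0.761 in replicate 1 and 0.151 to 1.39 in replicate 2. The groups of values of the 2 chains overlapped.

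The chain at Rabep2, Atp2a1 and Sh2b1 on chromosome 7 (126441649 to 126468770) held 23 peaks and took position 3 by summed rank. Atp2a1 encodes the pump that returns calcium to the sarcoplasmic reticulum in fast fibres. The chain's signals ran from 0.433 to 3.11 in replicate 1 and from 0.297 to 4.72 in replicate 2. The chain over Per1, a core clock gene, and Hes7 on chromosome 11 (69092421 to 69124400) held 19 peaks with a mean rank of 64.6, and its best peak had signals of 7.58 and 16.2. The chain in Pfkm, the muscle phosphofructokinase of glycolysis, on chromosome 15 (98111155 to 98133780) held 17 peaks, 14 of them intronic. The chain at Bcl9l, a coactivator of WNT signalling, and Cxcr5 on chromosome 9 (44500681 to 44515631) held 16 peaks within a narrow band of 0.580 to 1.43 in replicate 1 and 0.633 to 2.52 in replicate 2. The Cxxc5 chain, at the gene of a CXXC zinc finger protein, held 18 intronic peaks and took position 7 by summed rank.

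**Figure D2:**
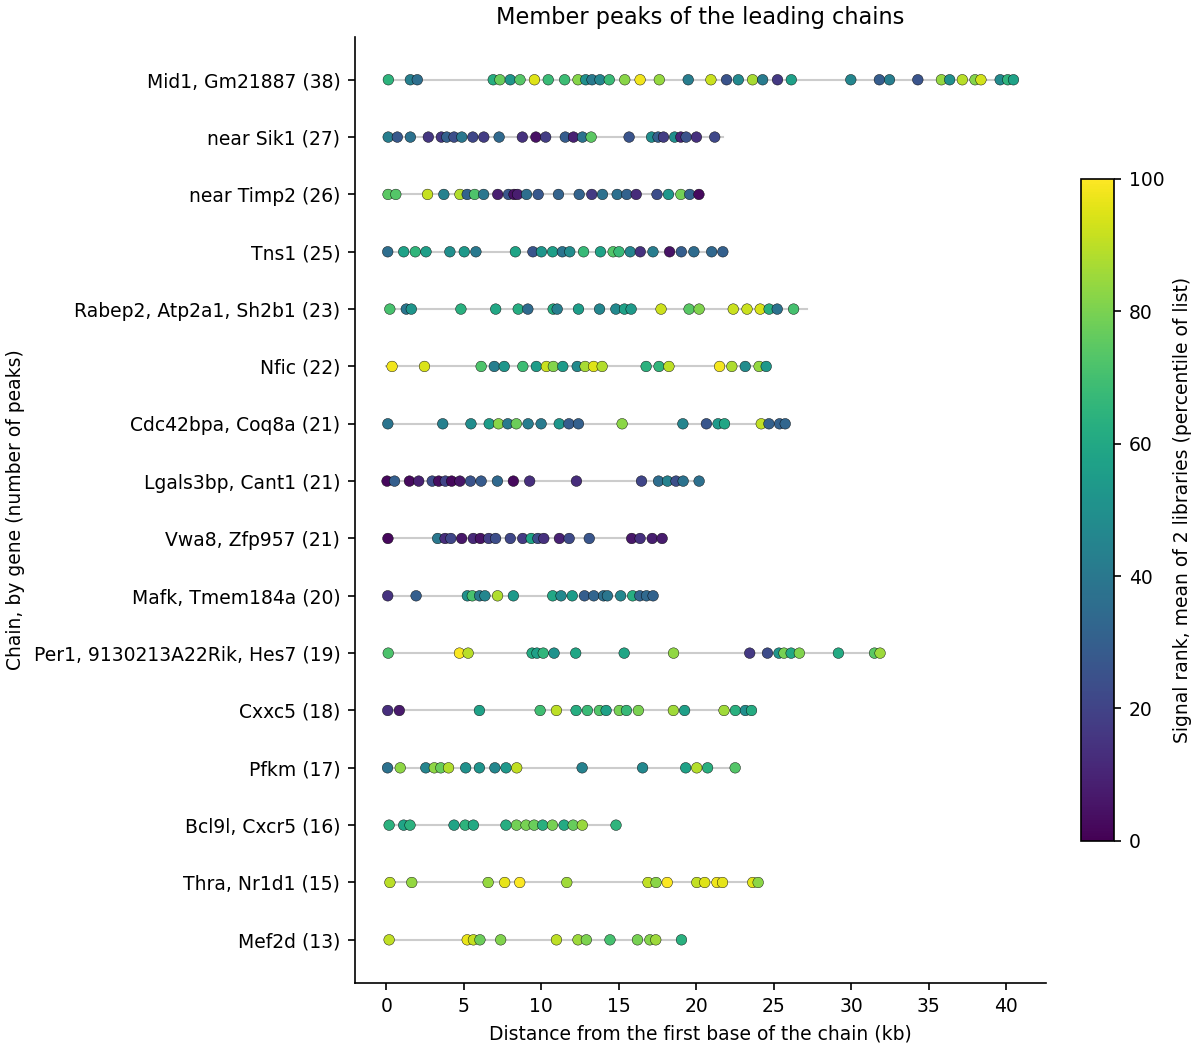
Member peaks of 16 leading chains, drawn by distance from the first base of each chain (kb). These are the 10 chains with most peaks, followed by the other chains of the 10 highest by summed rank. Colour gives each peak's signal rank as a percentile of its list, averaged over the 2 libraries. All 15 peaks at Thra and Nr1d1 rank at least 82.1, while the 21 at Vwa8 and Zfp957 rank from 2.17 to 58.3.

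The larger a cluster was, the lower its peaks ranked. In chains of 5 to 6, 7 to 9, 10 to 14 and at least 15 peaks, the median rank was 75.4, 71.3, 57.0 and 43.8. Replicate 1 had median signals of 0.989, 0.907, 0.626 and 0.451 in these classes, and replicate 2 had 1.54, 1.18, 0.684 and 0.504. The share of members ranked under 20 was 3.91%, 7.10%, 13.8% and 15.8%. Both libraries showed the same order. The chains themselves differ, as the Thra and Nr1d1 and Nfic chains show.

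**Figure D3:**
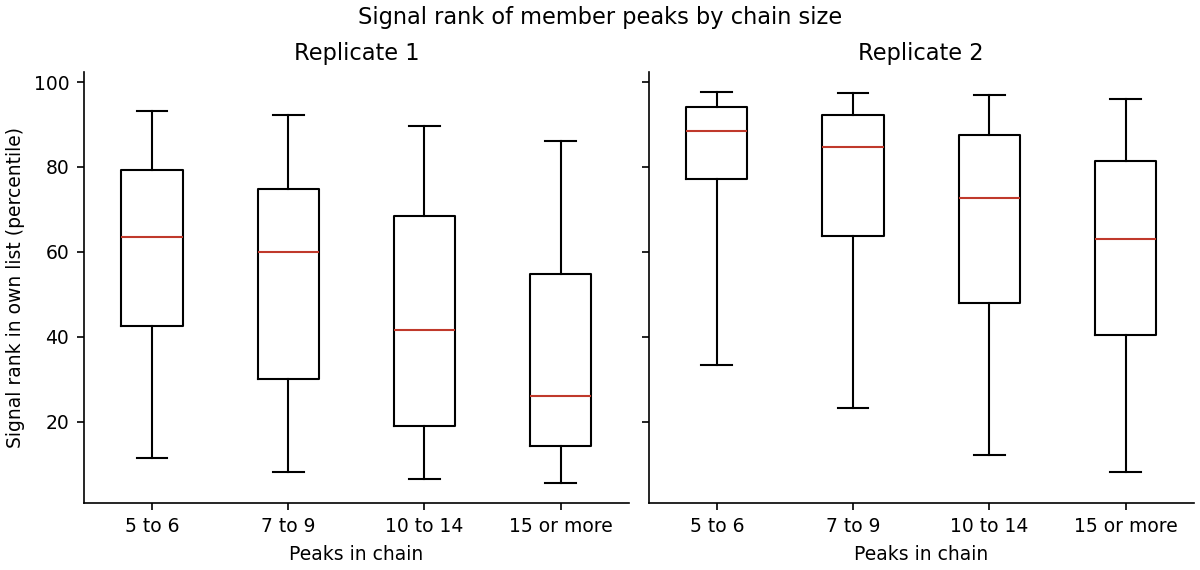
Signal rank (percentile within the library's own list) of member peaks by chain size, for replicates 1 and 2. Boxes give the quartiles, red lines the medians and whiskers the 5th and 95th percentiles of peaks. The median falls across the 4 size classes in both libraries, though the boxes overlap.

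Member peaks as a whole were more uneven in strength than the other distal shared peaks. The median rank was 66.2 in members (quartiles 40.6 and 82.2) and 68.3 in the others (56.6 and 79.8). Both ends were fuller in the clusters, with 11.7% of members and 6.85% of the others ranked over 90, and 8.95% of members and 1.15% of the others under 20. Median signal was 0.767 in members and 0.755 in the others in replicate 1, and 1.01 and 1.36 in replicate 2. Members were wider, with a median of 280 bp against 230 bp in the others. Across the 2602 members the signals of the 2 libraries had a Spearman's rho of 0.918 and a Pearson's r of 0.916 on log2 signal. Across the 24715 others these were 0.821 and 0.853. These are correlations over peaks, many of them from the same loci, and are descriptive.

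Chains were also built in each library alone, from all its own distal peaks. Replicate 1 gave 961 chains with 10023 peaks, and replicate 2 gave 5893 chains with 97319 peaks. Of the 331 shared clusters, 327 overlapped a chain of replicate 1 and 330 a chain of replicate 2. The reverse shares were low, since 325 chains of replicate 1 (33.8%) and 320 of replicate 2 (5.43%) overlapped a shared cluster. Inside the spans of the shared clusters lay another 585 peaks found in replicate 1 only and 1309 in replicate 2 only. Of the 331 spans, 102 (30.8%) also held a shared peak at a promoter.

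Clusters held a larger share of exonic peaks than other distal shared peaks did. Of the 2602 members, 430 lay in exons, which is 16.5% (exact 95% interval 15.1 to 18.01), against 7.97% (7.63 to 8.31) of the others. Introns held 47.9% of members (45.95 to 49.8) and 51.1% of the others (50.5 to 51.7). Intergenic DNA held 35.6% of members (33.7 to 37.5) and 40.9% of the others (40.3 to 41.5). Coding exons accounted for 8.34% of members and 3.74% of the others, and untranslated exon parts for 4.53% and 2.10%. Exons of non-coding transcripts held 3.65% and 2.13%. Peaks of one chain share a locus and are not independent, and the intervals cover counting error only.

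The exonic members were concentrated in a minority of clusters. In 182 of the 331 chains no member was in an exon, and in 29 most were. Ttn, the gene of the giant elastic sarcomere protein titin, had the cluster with most exonic members together with Bcl9l, on chromosome 2 (76713561 to 76721017). All 13 of its members lay in coding exons, with median signals of only 0.363 in replicate 1 and 0.319 in replicate 2 and a mean rank of 27.7. A second Ttn chain (76892521 to 76909440) had 10 of 18 members in coding exons and a mean rank of 34.0. Plec, which encodes the cytoskeletal linker plectin, had 11 of 12 members in exons, and Bcl9l and Cxcr5 had 13 of 16. Without the 8 multi-copy clusters the exonic share was 16.9% and the intronic share 48.5%.

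Clusters also lay nearer to gene starts, although every member is more than 1 kb away by the rule. The median distance to the nearest protein-coding start was 8.15 kb for members and 19.4 kb for the others. Of members, 57.0% lay within 10 kb of one and 11.6% beyond 50 kb, against 34.4% and 27.4% of the others. Of the 331 chains, 218 overlapped a protein-coding gene and 113 did not, and 74 lay wholly in introns. Chromosome 11 held the most, with 49 chains and 403 members, or 18.4% of its distal shared peaks. The lowest share was 2.05% on chromosome 16, with 3 chains.

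The gene windows, each gene body with 10 kb on both sides, were then counted. A cluster peak lay in the window of 421 of 21938 protein-coding genes, or 1.92%, while any distal shared peak lay in 38.5%. The share with a cluster ran from 1.43% in windows under 30 kb to 2.37% in windows over 200 kb. The gene lists below were chosen with earlier results of these data known, and they share some genes. Their counts are descriptions beside that 1.92%.

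Clusters were found at 9 of 20 sarcomere genes. Ttn had 31 member peaks, Acta1, the skeletal muscle actin, had 12, Flnc, the Z-disc and membrane linker filamin C, had 9, and Myoz3, a Z-disc protein that binds calcineurin, had 8. The Flnc chain on chromosome 6 (29430701 to 29442120) was strong, with a mean rank of 78.3 and median signals of 1.20 in replicate 1 and 1.65 in replicate 2. The Acta1 chain on chromosome 8 (123880841 to 123893700) held 13 peaks with median signals of 0.925 and 0.768.

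Fast fibre genes had clusters at 6 of 22, led by Atp2a1 with 23 peaks, Pfkm with 17, the glycogen phosphorylase gene Pygm with 11 and the creatine kinase gene Ckm with 10. Among 18 slow fibre genes only Nfatc1, a transcription factor activated by calcineurin, had one, with 16 peaks. Fast fibre genes with any distal shared peak were 17 of 22 and slow fibre genes 13 of 18. The fast fibre genes without any were the myosin genes Myh1, Myh2 and Myh4, and Actn3 and Tnni2. The slow fibre genes without any were Atp2a2, Csrp3, Myh7, Myl2 and Pln. The fast genes Tnnt3, Tnnc2, Mylpf and Myl1 had some but no cluster, and Pfkm and Pygm are also on the glycolysis list. Excitation-contraction coupling genes had clusters at 4 of 18, with 13 peaks at Jph2, which joins the sarcoplasmic reticulum to the surface membrane, and 5 each at the calcium release channel gene Ryr1 and the sodium channel gene Scn4a. Glycolysis and glycogen genes had them at 4 of 22, with 6 peaks at Pgm1 and 5 at the hexokinase gene Hk2 beside Pfkm and Pygm.

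Regulators of transcription were also among the genes with clusters. Circadian clock genes had one at 6 of 18, with 16 peaks at Per1, 10 at Nr1d1, and 6 each at Nfil3 and Tef, which encode D-box binding factors. Nuclear factor I and MAF genes had one at 3 of 10, with 23 peaks at Nfix, 22 at Nfic and 20 at Mafk. Nuclear receptor genes had one at 3 of 18, Nr1d1 with 10 peaks, Thra with 6 and Nr4a1 with only 2. Of these, Nr1d1 and Thra lie in the same chain. Among myogenic and MEF2 regulators, Mef2d and the TEAD cofactor Vgll4 were the only 2 of 20 with a cluster, at 18 and 11 peaks. Every one of these 20 regulators had some distal shared peak. Atrophy and FOXO genes had clusters at 3 of 14, Fbxo31 with 16 peaks, Foxo3 with 10 and Cebpb with 5. Immediate early genes had them at 2 of 17, Zfp36, whose protein speeds mRNA decay, with 9 and Ier2 with 5.

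Hox genes, the homeobox regulators of axial and limb pattern, had clusters at 6 of 21, all in the Hoxa group, where 2 chains of 17 and 11 peaks lay 6.30 kb apart on chromosome 6. Their windows overlap, so Hoxa3 with 18 peaks, Hoxa5 with 14, Hoxa9 with 13 and Hoxa7 with 12 count many of the same peaks. These chains were weak, with mean ranks of 32.3 and 41.3.

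Lists of other cell types of the tissue are too short to be read against the 1.92% of all genes. Gsn, the actin-severing protein gelsolin, was the only 1 of 15 fibroblast genes, with 17 intronic peaks. No cluster lay at any of the 16 endothelial, 11 mural, 11 satellite cell, 8 tendon, 12 macrophage, 12 Schwann cell or 10 adipocyte genes. Among these, 11 endothelial, 6 mural, 9 satellite cell, 6 tendon, 6 macrophage, 6 Schwann cell and 5 adipocyte genes had some distal shared peak. The 20 genes of fatty acid oxidation and mitochondria and the 14 of the neuromuscular junction had no cluster either, with some distal shared peak at 14 and 13 of them. Nor did the 16 cytosolic ribosome, 15 hepatocyte and 15 neuron genes, of which 6, 4 and 7 had one. The dystrophin complex had a cluster at 1 of 14 genes, the sarcoglycan gene Sgca with 5 peaks, and insulin signalling at 1 of 15, the receptor substrate gene Irs1 with 5.

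The E-box CAGCTG was less frequent in members than in the other distal shared peaks. It stood in 509 of 2602 member windows, or 19.6% (exact 95% interval 18.05 to 21.1), and in 25.2% (24.7 to 25.8) of the others. Promoter shared peaks held it in 12.4%, and windows 1 kb beside the members, outside peaks, in 7.498%. With windows centred on each library's own peak, the share of members was 18.99% in replicate 1 and 19.6% in replicate 2, and averaged 19.3 ± 0.462% (SD, n = 2). The others had 24.6% and 25.4%, averaging 25.0 ± 0.546%. The gap between the sets exceeded this spread, which comes only from where the windows were centred. Both libraries' values use the same shared peaks and the same reference sequence. Since peaks of a chain share a locus, no test was run. At least 1 member with CAGCTG was present in 266 of the 331 clusters, and at least 2 in 128.

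The E-box share followed signal rank in both sets, and the sets differ in rank. Members ranked under 40 had the site in 12.6% and the others in 15.3%. In the classes 40 to 60, 60 to 80 and at least 80, members had 15.03%, 20.1% and 27.5%, and the others had 22.5%, 25.9% and 29.3%. In the strongest class the intervals overlapped (24.3 to 30.8 in members and 28.1 to 30.4 in the others). They also overlapped in the class under 40 (10.1 to 15.4 in members and 13.5 to 17.3 in the others). In the classes 40 to 60 and 60 to 80 they lay apart. Across chains of 5 to 6, 7 to 9, 10 to 14 and at least 15 peaks the share was 23.2%, 18.4%, 17.0% and 15.9%. Without the multi-copy clusters it was 20.1% over all members.

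The Nfic chain had the E-box in 7 of 22 peaks, where the share over all members was 19.6%. The other chain with 7, chosen for mention after its values were seen, had 13 peaks, all in introns of Firre, a long non-coding RNA gene of chromosome X (50599901 to 50623280). Its mean rank was 73.9. The Thra and Nr1d1 chain had 5 of 15. The chain near Timp2 with 6 of 26 and the Atp2a1 chain with 5 of 23 were near the share over all members.

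Of 24 motifs searched on both strands, 9 were less frequent in members with intervals apart, 2 were more frequent, and 13 had overlapping intervals. Matches of different motifs may overlap and each was counted. Peaks of a chain share a locus and the intervals cover counting error only, so these counts are a description and no test. Only CAGCTG was also compared within classes of signal rank. The nuclear factor I site TTGGCA, the shorter form of its motif, stood in 12.4% of members and 20.3% of the others, and the CTCF motif, of the factor that anchors chromatin loops, in 1.27% and 3.48%. AP-1 (TGACTCA or TGAGTCA) stood in 5.42% and 7.86%, MEF2 in 1.23% and 2.12%, the MEF3 site TCAGGTT in 1.73% and 2.69%, and NFAT (TGGAAA) in 11.3% and 14.6%. FOX (TGTTTAC) stood in 1.19% and 2.03%, and the MAF site TGCTGA in 15.4% and 17.9%. The 2 more frequent in members were the E-box CACCTG, in 16.1% and 14.1%, and the SP and KLF site GGGCGG, in 10.9% and 9.25%. For both the intervals were barely apart. The members' lower limits were 14.67% and 9.71%, and the others' upper limits 14.55% and 9.62%. In promoter shared peaks these 2 motifs stood in 10.7% and 44.5%. Median GC content was 56% in members and 54.7% in the others. The clock E-box CACGTG did not differ beyond the intervals, at 4.30% (3.56 to 5.16) and 3.99% (3.75 to 4.25). These are matches of letters, not measured binding.

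**Figure D4:**
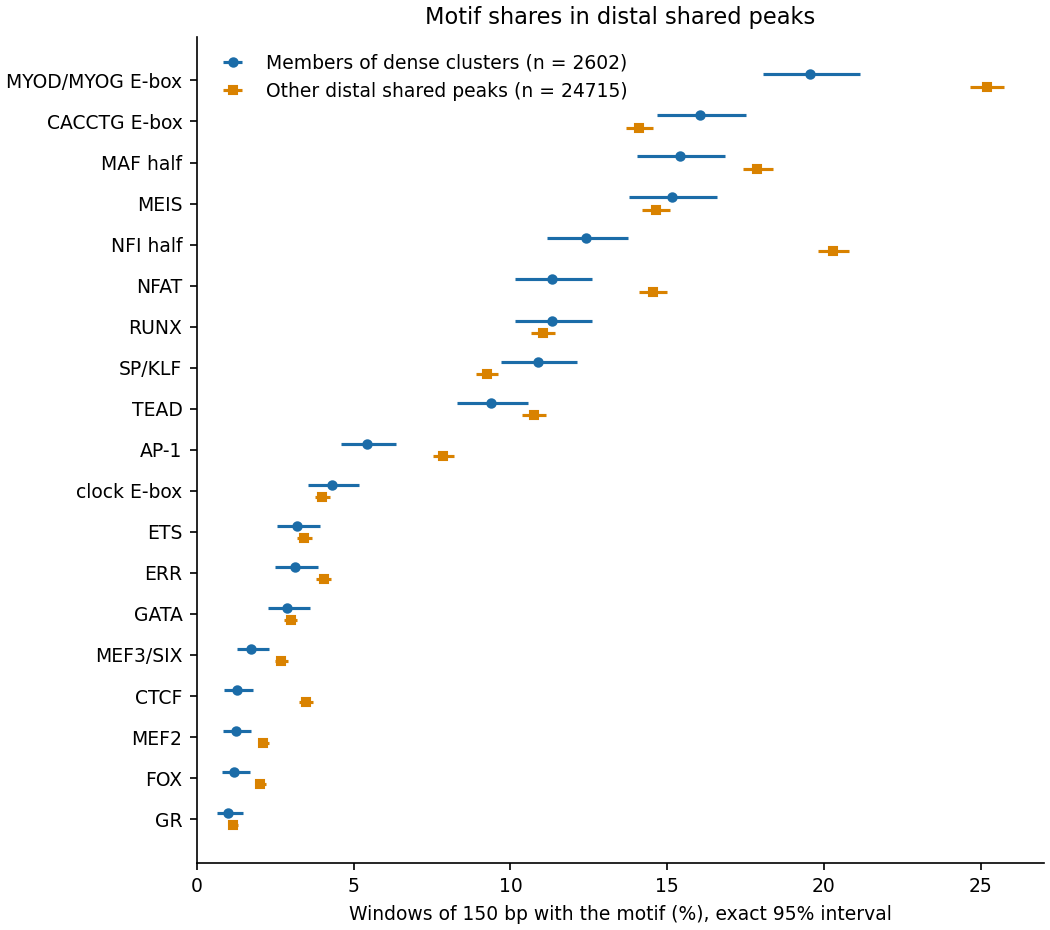
Share of 150 bp windows with each motif in members (blue circles) and in the other distal shared peaks (orange squares), with exact 95% intervals. The 19 motifs shown stand in at least 1% of the others. CAGCTG, labelled as the MYOD/MYOG E-box, stood in 19.6% and 25.2%, and TTGGCA of nuclear factor I in 12.4% and 20.3%.

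The authors' footprints, short stretches inside open chromatin where cuts are depleted, were sparser in members per length of peak but not per peak in replicate 1. Members held 6.95 per kb in replicate 1 and 6.98 in replicate 2, and the others held 8.13 and 10.2. The means were 6.96 ± 0.019 in members and 9.15 ± 1.45 in the others (SD, n = 2). Per peak, members, which are wider, held 2.43 in replicate 1 and 2.44 in replicate 2, and the others held 2.05 and 2.56. The means were 2.43 ± 0.00652 in members and 2.30 ± 0.364 in the others (SD, n = 2). At least 1 footprint lay in 79.5% of members in replicate 1 and in 75.02% in replicate 2, against 86.0% and 91.9% of the others. Members held fewer per kb in both libraries, while the libraries themselves differed more in the others than in members. At the Mafk chain the libraries disagreed, with 46 footprints in replicate 1 and 8 in replicate 2.

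Footprints overlapped some motif sites far more often than others. An overlap of 1 bp was enough, and the differing lengths of the motifs were not allowed for. Of the 571 CAGCTG sites in member windows, 18.9% in replicate 1 (15.8 to 22.4) and 24.9% in replicate 2 (21.4 to 28.6) overlapped a footprint. Of the 7254 in the others, 23.0% (22.0 to 23.9) and 30.2% (29.2 to 31.3) did. The intervals of the 2 sets overlapped in replicate 1 and lay apart in replicate 2. CTCF sites overlapped a footprint in 81.8% and 78.8% of 33 in members, and in 75.5% and 79.5% of 865 in the others, with overlapping intervals. AP-1 sites did so in 19.5% and 30.2% of 149 in members, and in 22.1% and 28.9% of 2048 in the others, also with overlapping intervals.

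The DNA between the peaks of a cluster also had a raised cut rate. The authors' segments of raised cut rate all had a value under 0.05 that was taken to be a false discovery rate. With each library's own peaks left out, they covered 18.2% of the bases between members in replicate 1 and 33.8% in replicate 2. In the 10 kb on either side of the clusters they covered 3.26% and 12.4%, likewise outside that library's own peaks. Over the whole genome, peaks included, they covered 0.811% and 2.62%. Between was higher than beside in 319 of 331 clusters in replicate 1 and in 307 in replicate 2. The median cluster had 14.3% between and 1.38% beside in replicate 1, and 29.8% and 9.72% in replicate 2. Since the segments and the peaks come from the same reads, and dense peaks chose the clusters, this is a description and no test was run.

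Coverage between peaks was highest in the largest clusters. In chains of 5 to 6, 7 to 9, 10 to 14 and at least 15 peaks, the median was 9.02%, 16.1%, 26.7% and 29.99% in replicate 1, and 23.7%, 29.2%, 46.3% and 55.0% in replicate 2. The Nfic chain had 59.7% and 84.9% between its peaks in replicates 1 and 2, against 0.342% and 5.65% beside it. The chain near Sik1 had 60.6% and 41.4%, against 19.2% and 24.1% beside it. The Mef2d chain had 16.7% and 17.7%, against 0.450% and 0.659%. Of these, the Nfic chain of strong peaks and the Sik1 chain of weak peaks were both mostly covered in replicate 1.

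**Figure D5:**
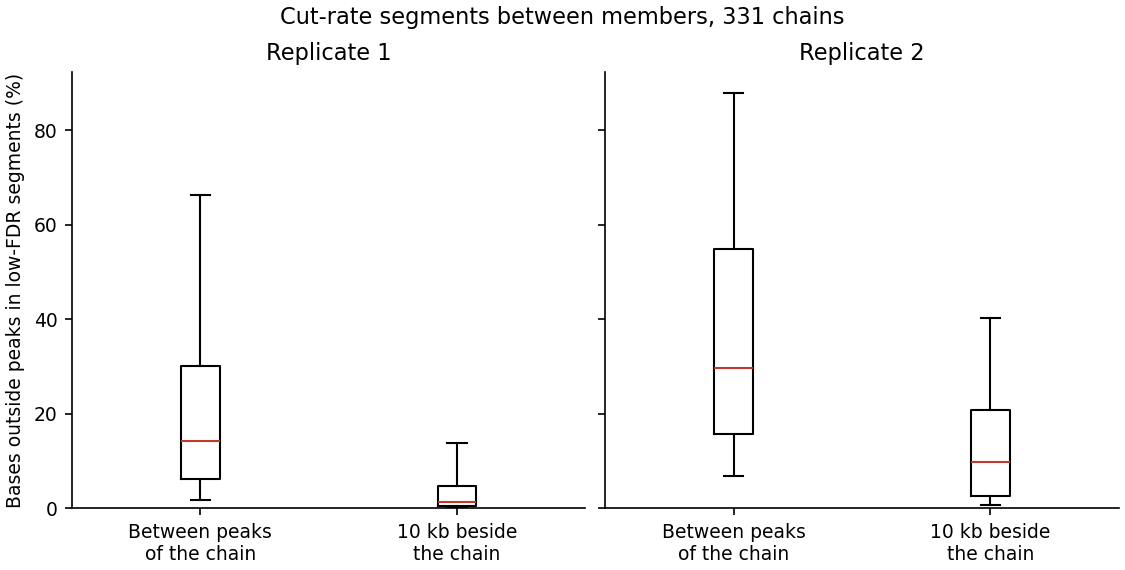
Share of bases outside the library's own peaks that lay in the authors' segments of raised cut rate. The axis calls them low-FDR, from the value taken to be a false discovery rate. The share is given between the peaks of each chain and in the 10 kb on either side, for 331 chains and both replicates. Boxes give the quartiles, red lines the medians and whiskers the 5th and 95th percentiles of chains. The medians between peaks, 14.3% and 29.8%, lie above those beside, 1.38% and 9.72%.

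The number of peaks in a span was also counted from the strongest peaks alone. This filter uses the same signal as the ranks, so chains of low rank lose peaks by construction and the counts are a description. With the stronger 50% of each list alone, the spans near Sik1, near Timp2, at Tns1, at Lgals3bp and at Mafk held 1, 6, 4, 0 and 2 distal shared peaks. With all peaks they held 27, 26, 25, 21 and 20. The Thra and Nr1d1 span held 15 under both, the Mef2d span 12 of 13, the Nfic span 15 of 22, the Atp2a1 span 10 of 23 and the Mid1 span 18 of 38. With equal numbers of the strongest peaks from each library, these last 5 held 15, 13, 16, 13 and 20. Under that setting the Sik1 span held 2, the Timp2 span 6, the Tns1 span 6, the Lgals3bp span 1 and the Mafk span 4.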

How the data were processed

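DNase-seq was measured in 2 libraries of 1 group. Per the labels, positions are on mm10. By the README texts deposited alongside, peaks, segments and footprints come from that library's own alignments. Neither the aligner nor the peak caller is given in the sources used here. Each peak has the authors' deposited signal, never negative, of unstated scale. The deposited segments carry a p-value column, taken to be a false discovery rate for the cut rate and under 0.05 in every row, and the deposited footprints hold a p-value of 0.01 in every row. Sequencing depth is unknown, and exact Clopper-Pearson intervals at 95% cover counting error only.

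The longer of each library's 2 peak lists was used. Shared peaks were merged overlaps, with the midpoint averaged over the libraries' strongest peaks, and distance was taken from every transcript start in GENCODE release M21. A peak's rank is its percentile by signal within its library's list, with 100 the strongest, averaged over the 2 libraries. Both strands of 150 bp windows were searched for motifs. Gene windows were the body plus 10 kb on each side. Of 423 entries in 27 gene lists, 422 were found.

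The text names the 15 chains with most peaks, the 10 with the highest summed rank, and up to 4 genes per list, though not all of them with values. Clusters named for their exons, E-boxes or place in the genome (Plec, Firre, Y) were chosen after their values were seen. The members and the lists were chosen with earlier results of these data known. The functions were tested on simulated data. Tools were Python 3.11.15, pysam 0.24.0, pandas 2.3.3, matplotlib 3.10.9, numpy 2.4.6 and scipy 1.17.1. Alternatives were other gaps, distances, chain sizes, lists, overlaps, midpoints, windows and each library alone.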

Additional observations from a re-analysis of the deposited data

How the results depend on the processing

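The counts of clusters, members and genes moved with the definition. The lower E-box share of members did not change direction in the 12 settings where it was compared. The 5 values reported were 331 clusters, 2602 members, 47.9% of members in introns, 19.6% with CAGCTG and 421 genes. In that order, gaps of at most 2 kb gave 176, 1369, 43.2%, 18.2% and 229, and gaps of at most 10 kb gave 551, 4225, 49.0%, 22.0% and 703. Chains of at least 8 peaks gave 105, 1347, 48.2%, 16.8% and 176. The shorter peak lists gave 134, 1055, 45.4%, 20.5% and 188. The stronger 50% of each list gave 146, 925, 51.2%, 24.1% and 171, and equal numbers of the strongest peaks gave 186, 1183, 49.2%, 23.3% and 210. More than 2 kb from a start, 255 clusters with 1868 members had 45.8% in introns, 20.7% with CAGCTG and 261 genes. With protein-coding starts only the intronic share was 46.7%, and with an overlap of 50% of the shorter peak 47.1%. An exclusion of multi-copy clusters, chosen after seeing the data, gave 48.5% and 20.1%. Windows of 300 bp gave 29.5% with CAGCTG, and the other distal peaks were not counted at that width. Gene bodies alone gave 258 genes and flanks of 50 kb gave 910. Without either replicate, where all peaks of the other count and not shared peaks only, there were 961 to 5893 clusters, 10023 to 97319 members, 47.8% to 56.5% in introns, 13.5% to 14.3% with CAGCTG, and 1120 to 5448 genes. The other settings left the counts within 1.5 times and the shares within 1 SD between the libraries' peak centres. The cause of these moves was not tested. The E-box share of members stayed below that of the other distal peaks under 12 settings, by 2.90 to 8.48 percentage points. No paired analysis was possible because there is 1 group.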
